A study of Homo sapiens with 42 samples.

Results

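Hep3B cells, a human hepatoma line, were examined after 15 min in CM, a medium rich in pro-inflammatory cytokines per the labels, against the control medium NCM. The comparison was made up of the arrays labelled with that time, 6 of the 42 arrays of the series, which gave 3 pairs of 1 CM and 1 NCM culture. Per the labels, each pair was seeded from the same trypsinized cells, and the series ran from T0 to 16 h in 3 independent experiments. Every culture carried the genotype of this 1 line, each array measured total RNA over 13824 probes, and the sources used here name neither the cytokines in CM nor their doses. Pairs 1, 2 and 3 below are the pairs of experiments S1, S2 and S3.

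Cytokines such as interleukin-1, tumour necrosis factor and interleukin-6 act on liver cells through receptors at the surface, which switch on NF-kappaB, MAP kinases and STAT3. These need no new protein to act, so the first genes to be transcribed are the immediate early genes, among them the AP-1 and EGR transcription factors and the inhibitors that shut the signal off again. The acute phase proteins of the liver, such as CRP and complement factor B, follow later. The transcript of NFKBIA, which encodes the inhibitor IkappaB-alpha, is a classical early target of NF-kappaB, and CXCL2, a neutrophil-attracting chemokine, is another.

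The promoters of these 2 genes are shown because their transcripts are the early NF-kappaB targets followed through the first hour below. Each line gives the 250 bases before the start of the gene, 5′ to 3′ in the direction of the gene, from RefSeq (GRCh38.p14). Capitals mark matches to the kappaB consensus, the sequence that NF-kappaB dimers are known to bind, searched on both strands.
NFKBIA (chr14:35404750-35404999, minus strand): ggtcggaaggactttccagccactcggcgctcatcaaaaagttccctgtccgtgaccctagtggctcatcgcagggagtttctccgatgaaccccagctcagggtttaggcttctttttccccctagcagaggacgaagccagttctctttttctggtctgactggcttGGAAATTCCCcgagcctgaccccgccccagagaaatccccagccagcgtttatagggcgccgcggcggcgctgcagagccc
CXCL2 (chr4:74099196-74099445, minus strand): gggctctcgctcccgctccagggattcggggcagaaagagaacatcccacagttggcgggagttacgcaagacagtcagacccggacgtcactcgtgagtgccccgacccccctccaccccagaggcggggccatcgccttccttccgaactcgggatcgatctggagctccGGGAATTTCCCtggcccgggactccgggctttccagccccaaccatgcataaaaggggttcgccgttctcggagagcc
The match lies at bases -81 to -72 of NFKBIA, on the strand opposite to the gene. In CXCL2 a match on the strand of the gene, at bases -78 to -69, overlaps another on the opposite strand, at bases -77 to -68. The consensus was found in 3498 of 35116 windows of this length (9.96%) and in 9 of the 15 genes of the NF-kappaB list that had a window. A form with 3 T before the closing CC was searched first and lay in 608 windows (1.73%) and in 8 of the 15 genes. In both searches a gene counted if any of its windows matched, so shares of genes and of windows differ in unit. A match of letters describes the window only, and both forms were chosen after the data had been seen.

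At 15 min no transcript differed between CM and NCM past the threshold. Limma called 0 of 13824 probes (0%) at an adjusted p under 0.05, and the smallest adjusted p was 1.00. At an unadjusted p under 0.05 there were 280 probes higher in CM (2.03%) and 212 lower (1.53%), 492 in all, against 691.2 that a level of 0.05 gives over this number of probes. A change is the mean CM minus NCM difference of the 3 pairs on the log2 scale. It was at least 1 for 23 probes and at most -1 for 16 probes. CM lay above NCM in 3 of 3 pairs for 1647 probes (11.9%) and below it in 3 of 3 pairs for 1314 probes (9.51%). The 3 CM values did not overlap the 3 NCM values for 374 probes with CM higher (2.71%) and 251 with CM lower (1.82%). With 3 pairs an exact permutation test over the pairs cannot go below a two-sided p of 0.25, so the p-values given here are those of the limma model, whose spread is pooled over the pairs of all times.

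The NCM array of pair 1 stood apart from the other arrays at 15 min. Across probes its log2 intensities correlated at 0.761 and 0.749 with the NCM arrays of pairs 2 and 3, against 0.936 between those 2 arrays. The CM array of pair 1 correlated at 0.808 and 0.842 with the CM arrays of pairs 2 and 3, which correlated at 0.929 with each other. Within the pairs, CM and NCM arrays correlated at 0.854, 0.932 and 0.952. Median intensities as deposited were 0.496, 0.762 and 0.374 on the CM arrays and 0.731, 0.451 and 0.407 on the NCM arrays. A value given below as without a pair is the mean of the other 2 pairs.

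The differences of the 3 pairs shared little across probes. Their SD over all probes was 0.70 in pair 1, 0.48 in pair 2 and 0.41 in pair 3, and it was 0.28 for their mean. Across probes the differences correlated at -0.30 between pairs 1 and 2, at -0.15 between pairs 1 and 3 and at 0.27 between pairs 2 and 3. These probes share the same 6 arrays and are not independent replicates. A probe's difference also correlated with the mean of its neighbours, at 0.42, 0.54 and 0.36 in the 3 pairs. Neighbours were the probes around it on a grid assumed from the probe numbering alone. The part of position on the array in single values was not tested. Different probes of 1 gene can be set side by side for 1128 genes, and the changes of their brightest and second brightest probes correlated at 0.04, with 564 of them (50%) alike in sign.

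**Figure D1:**
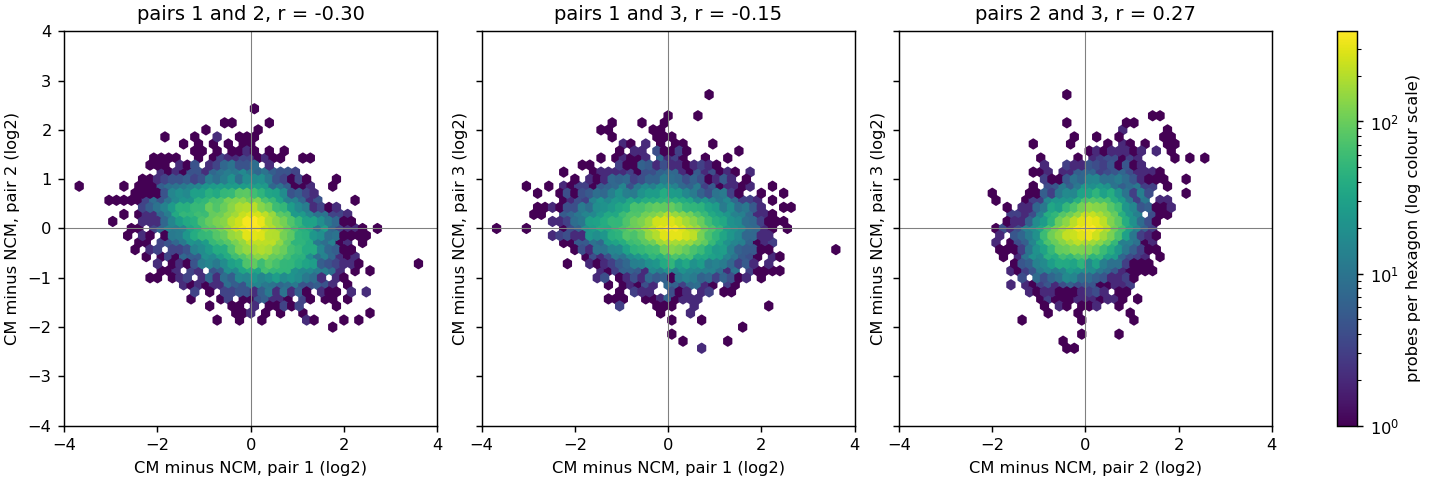
CM minus NCM differences at 15 min of each of 13824 probes (log2), with one pair on the x axis and another on the y axis and the number of probes per hexagon as colour. The cloud tilts downward for pairs 1 and 2 (r = -0.30), slightly downward for pairs 1 and 3 (r = -0.15) and upward for pairs 2 and 3 (r = 0.27).

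Since no gene passed the threshold, the 12 genes in each direction with the smallest unadjusted p and 3 of 3 pairs alike are given as values. At an unadjusted p under 0.05 there were 111 genes higher in CM (1.97%) and 69 lower (1.23%) among the 5631 genes. The 24 were picked for these differences, so their p-values support nothing further, and each had an adjusted p of 1.00 in limma. Genes are represented by the brightest of their probes. Of the 24 genes, 10 were among the dimmest 25% of probes and 14 among the dimmest 50%. Their changes had SEs between 0.17 and 0.40. CM and NCM values did not overlap for 4 of the 12 genes with CM higher and 5 of the 12 with CM lower, a property that 2.34% and 1.76% of all genes had.

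Among the genes higher in CM, BDH1, which encodes a mitochondrial enzyme that makes and uses ketone bodies, had the smallest p. Its log2 intensity was -0.38, -1.16 and -1.60 in CM, against -1.20, -2.00 and -2.39 in NCM. CM was higher within each pair by nearly the same amount, although the groups overlapped because the experiments differed in level. The change was 0.81 (SE 0.21, n = 3 pairs, 1.76-fold, unadjusted p = 0.000879). The SD of its pair differences was 0.03. At T0 the change of BDH1 was 0.02, and at 30 min it was 0.47.

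DAPK1, a kinase that promotes cell death, had log2 intensities of -1.42, -2.24 and -2.60 in CM and -2.12, -3.34 and -3.47 in NCM. The groups overlapped, with CM above NCM in each pair, and the change was 0.89 (SE 0.24), or 0.22 with the floor for low intensities raised to the 10th percentile. RHAG, the Rh-associated glycoprotein known from red blood cells, had 2.19, 2.42 and 2.21 in CM and 1.66, 1.89 and 1.61 in NCM. Here every CM value lay above every NCM value. Its change was 0.55 (SE 0.17, pair difference SD 0.05), against -0.16 at T0 and 0.19 at 30 min.

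LITAF, an endosomal membrane protein first described as a factor that acts on the TNF gene, had 0.11, 0.87 and 0.62 in CM and -1.16, 0.10 and 0.11 in NCM. The pair differences were 1.26, 0.76 and 0.51, largest in pair 1, with a change of 0.84 (SE 0.26). A second LITAF probe had pair differences of -0.09, 1.53 and 0.14, so that its change of 0.53 came mostly from pair 2. CD79A, a part of the B cell receptor, had the largest change of the 12 genes, 1.10 (SE 0.35). It had -1.15, -1.43 and -2.15 in CM and -1.50, -3.62 and -2.91 in NCM. The NCM value of pair 2 was at the floor set for low intensities, and that pair alone had a difference of 2.19. Without pair 2 the change was 0.55.

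TTLL5, an enzyme that adds glutamate to tubulin, had pair differences of 1.68, 0.29 and 0.81 and a change of 0.93, which was 0.55 without pair 1. RMP24 had differences of 2.02, 0.33 and 0.26 and a change of 0.87, which was 0.30 without pair 1. For both genes the first pair therefore supplied most of the change. The remaining 5 of the 12 were ANK2, an adaptor between membrane proteins and the cytoskeleton (0.80), PPT2, a lysosomal thioesterase (0.89), SHROOM3, an actin-binding protein (0.53), TMCC2 (0.73) and TNS3, a protein of focal adhesions (0.64). A second TNS3 probe had a change of 0.05. ANK2, TMCC2 and TTLL5 were without overlap between the groups.

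**Figure D2:**
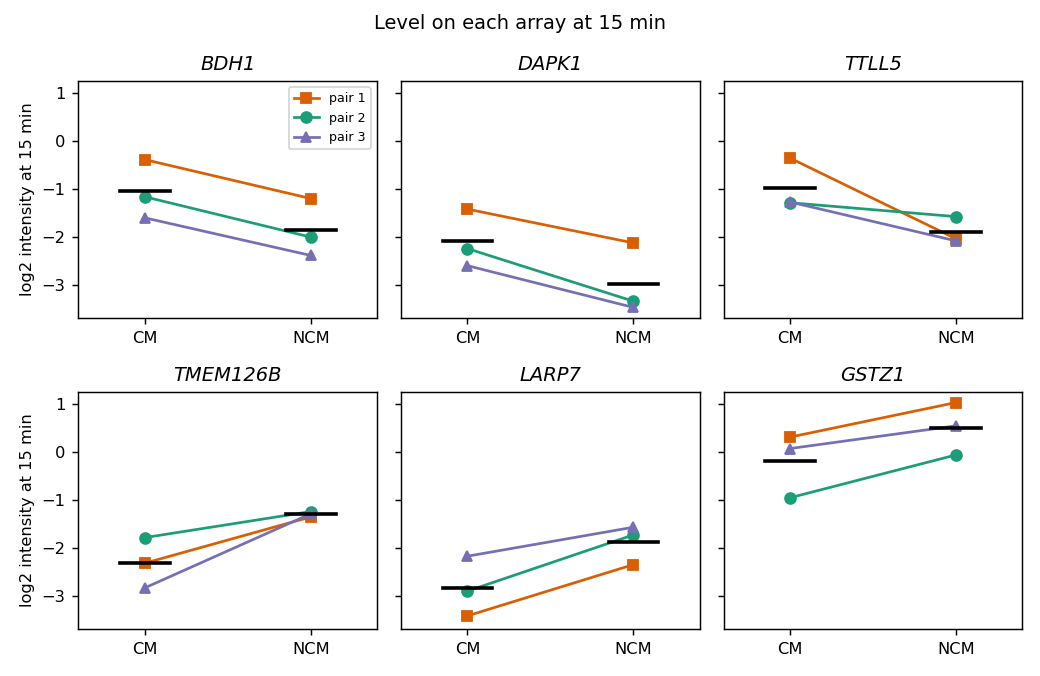
Log2 intensity at 15 min of 6 genes on each CM array (left in each panel) and each NCM array (right), with a line joining the members of a pair and a black bar at the group mean. The 3 lines of BDH1 are nearly parallel (pair difference SD 0.03), while that of TTLL5 in pair 1 drops by far the most, with a difference of 1.68.

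Among the genes lower in CM by their brightest probes, TMEM126B, an assembly factor of respiratory complex I, had the smallest p. It had log2 intensities of -2.32, -1.79 and -2.84 in CM and -1.36, -1.25 and -1.29 in NCM. All CM values lay below all NCM values, and the NCM values were closer together than the CM values. The change was -1.02 (SE 0.27, n = 3 pairs, 0.494-fold, unadjusted p = 0.00123), against -0.28 both at T0 and at 30 min. It was -0.40 when each probe was centred on its neighbours on the grid assumed from the probe numbering.

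LARP7 binds the 7SK RNA, which holds back the elongation factor of RNA polymerase II. Its intensity was -3.42, -2.91 and -2.18 in CM, against -2.35, -1.73 and -1.57 in NCM, with CM below NCM in each pair and the groups overlapping. The change was -0.95 (SE 0.27), or -0.28 with the raised floor. GSTZ1, an enzyme of tyrosine breakdown, had 0.31, -0.96 and 0.07 in CM and 1.03, -0.06 and 0.54 in NCM, again lower in each pair with overlap, and a change of -0.70 (SE 0.20).

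SQSTM1, the autophagy receptor p62, had 0.41, -0.41 and -0.71 in CM and 1.20, 0.07 and 0.29 in NCM. Its change was -0.75 (SE 0.25), and the same probe had -0.63 at 30 min. A second SQSTM1 probe went the other way, with a change of 0.23 and CM higher in 3 of 3 pairs. ABHD2, a hydrolase of lipids, was split in the same manner. Its brightest probe had a change of -0.62 and another had 0.37, each with 3 of 3 pairs alike.

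For 4 of the 12 genes lower in CM, leaving out pair 1 reduced the size of the change by more than 1.5 times. NFS1, the cysteine desulfurase of iron-sulfur cluster synthesis, had pair differences of -2.16, -0.94 and -0.20 and a change of -1.10, which was -0.57 without pair 1. FKBP10, a prolyl isomerase of the endoplasmic reticulum, had -0.91 over 3 pairs and -0.49 without pair 1. In both genes the CM value of pair 1 was at the floor. PSMB4, a proteasome subunit, had -0.81 and then -0.50, and PCBD1, a pterin dehydratase and cofactor of HNF1, had -0.71 and then -0.33. PIK3R4, a subunit of the class III PI3 kinase, had -0.80, or -0.50 without pair 3. MYRF, a transcription factor known from myelin-forming cells, had -0.75, and ACTA2, the smooth muscle actin, had -0.65. TMEM126B, PCBD1, FKBP10, ACTA2 and PSMB4 were without overlap between the groups.

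**Figure D3:**
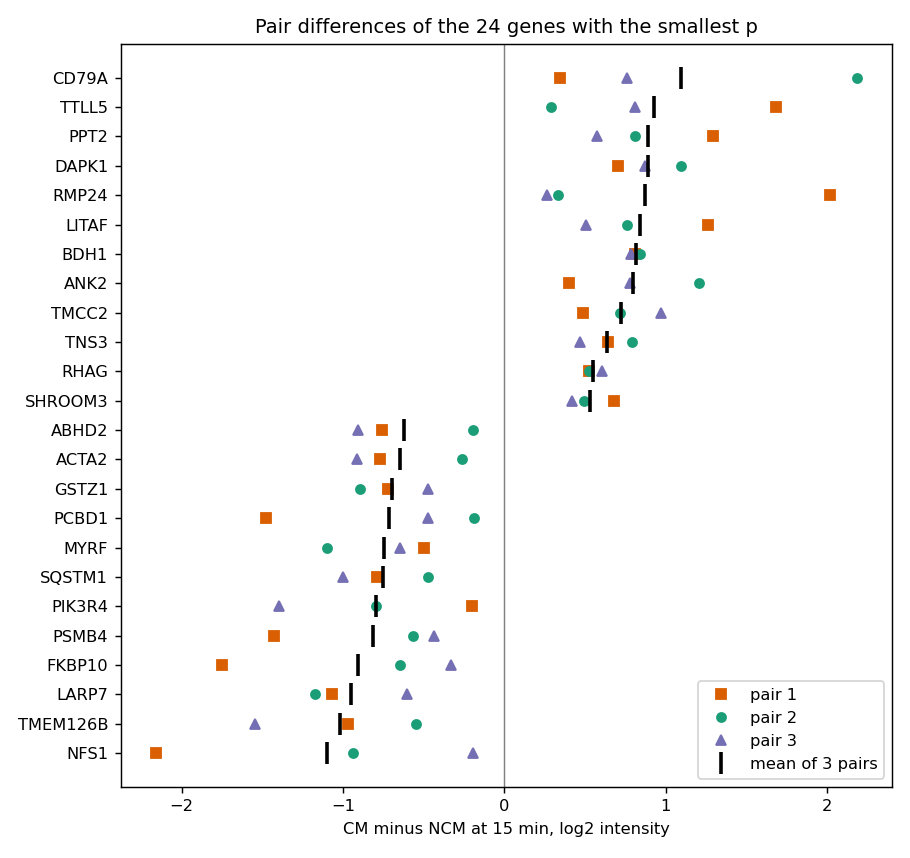
CM minus NCM at 15 min in each of the 3 pairs (points, log2) and their mean (black bars) for the 12 genes with CM higher and the 12 with CM lower. The pairs of BDH1 coincide near 0.81, whereas those of RMP24 run up to 2.02 and those of NFS1 down to -2.16.

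The genes followed for the cytokine response were close to the middle of the distribution at 15 min. Of 24 chosen genes 22 were measured, mostly early response and signalling genes, with CRP, CFB, ORM1 and the cytokine IL32 among them as genes that are not known as first responders. The changes of the 22 ran from -0.46 to 0.50 with a median of 0.02, and 11 of the 22 lay above 0, against 48.4% of all genes. CM was higher in 3 of 3 pairs for 2 of them, the early response gene JUN and the acute phase gene CRP, and lower in 3 of 3 pairs for 0, where 10.8% and 10.2% of all genes did so. The median of the same 22 genes was 0.03 at T0, 0.12 at 30 min and 0.34 at 1 h.

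JUN, a subunit of AP-1, had log2 intensities of -1.68, -1.93 and -1.46 in CM and -1.86, -2.68 and -2.02 in NCM. CM was higher in each pair, with overlap between the groups, and the change was 0.50 (SE 0.31, unadjusted p = 0.126). The change of JUN was 0.30 at T0, 0.64 at 30 min and 0.41 at 1 h. Its partner FOS had pair differences of -0.28, 0.36 and -0.50 at 15 min and a change of -0.14, and a second FOS probe had 0.15. JUNB had -0.07. EGR1 had a change of 0.11, with 0.47 in pair 1 and -0.11 and -0.04 in pairs 2 and 3.

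NFKBIA, whose promoter is printed above, had -0.43, -1.34 and -1.39 in CM at 15 min and -0.94, -1.69 and -1.24 in NCM. CM was higher in pairs 1 and 2 and lower in pair 3, and the change was 0.24 (SE 0.27). At 30 min it was 1.09, with pair differences of 1.16, 0.15 and 1.95, and at 1 h 1.23. Mean log2 intensity of NFKBIA in CM was -1.05 at 15 min, -1.04 at 30 min and -0.01 at 1 h. In NCM it was -1.29, -2.13 and -1.23. From 15 to 30 min the CM mean thus hardly moved, while the NCM mean fell. The 15 min change minus the 30 min change was -0.85 (SE 0.38, unadjusted p = 0.0348, adjusted p = 1.00 in limma). CXCL2 had -0.99, -1.28 and -0.31 in CM and -0.38, -0.77 and -0.83 in NCM, lower in CM in pairs 1 and 2 and higher in pair 3. Its mean went from -0.86 at 15 min to -0.31 at 30 min in CM and from -0.66 to -0.84 in NCM. Its change was -0.20 (SE 0.22) at 15 min, 0.53 at 30 min and 0.97 at 1 h, and 15 min minus 30 min gave -0.73 (SE 0.31, unadjusted p = 0.0267, adjusted p = 1.00).

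ATF3, a stress-responsive transcription factor, had -1.31, -1.12 and -1.65 in CM at 15 min and -1.14, -1.51 and -1.61 in NCM, with overlapping groups. Its change was 0.06 (SE 0.26), against 0.96 at 30 min, a difference of -0.90 (SE 0.36, unadjusted p = 0.0211, adjusted p = 1.00). From 15 to 30 min the mean of ATF3 went from -1.36 to -0.16 in CM and from -1.42 to -1.12 in NCM. At 1 h the change of ATF3 was 0.34, with pair differences of 1.23, -0.32 and 0.12. MYC had pair differences of 1.21, -0.70 and -0.11 at 15 min, a change of 0.13, which was -0.40 without pair 1, and 0.92 at 1 h. CEBPD, a transcription factor of the acute phase response, had differences of -0.62, 0.91 and 0.26, a change of 0.18, which was 0.58 without pair 1 and -0.18 without pair 2, and 1.14 at 1 h. The direction of MYC and of this CEBPD probe at 15 min thus rested on single pairs. From 15 min to 1 h the mean of MYC went from -0.50 to -0.30 in CM and from -0.63 to -1.22 in NCM. That of the CEBPD probe went from -0.73 to 0.78 in CM and from -0.91 to -0.37 in NCM. The other CEBPD probes had changes of -0.64, with CM lower in 3 of 3 pairs, and 0.02. The mean over all CEBPD probes was -0.15. The 15 min change minus the 1 h change was -0.78 for MYC (SE 0.37, unadjusted p = 0.0487, adjusted p = 1.00 in limma) and -0.96 for CEBPD (SE 0.42, unadjusted p = 0.0332, adjusted p = 1.00). Against 30 min it was -0.05 for MYC (SE 0.37, unadjusted p = 0.898 in limma) and -0.22 for CEBPD (SE 0.42, unadjusted p = 0.614). The 1 h comparison was not planned, and NFKBIA, CXCL2 and ATF3 were set against 30 min. Genes and times were chosen with the later values known, so these p-values support nothing further.

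SOCS3, a feedback inhibitor of STAT3 signalling, had -1.17, -0.59 and -0.96 in CM and 1.26, -1.19 and -1.40 in NCM. The NCM value of pair 1 was far above the other 5 values. The change was -0.46 over 3 pairs and 0.52 over pairs 2 and 3, so its direction rested on that array. CRP, the acute phase pentraxin, had 0.70, 1.07 and 0.99 in CM and 0.03, 0.88 and 0.45 in NCM. It was higher in CM in each pair, with overlap, at a change of 0.47 (SE 0.20, unadjusted p = 0.0287), against 0.02 at T0 and -0.16 at 30 min. The 2 other CRP probes had changes of 0.07 and 0.03, neither with 3 of 3 pairs alike, and the mean over its probes was 0.19. Complement factor B (CFB) had -0.13, with 0.16 and 0.30 for its other probes, and orosomucoid (ORM1) had -0.26, which was -0.02 without pair 1.

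**Figure D4:**
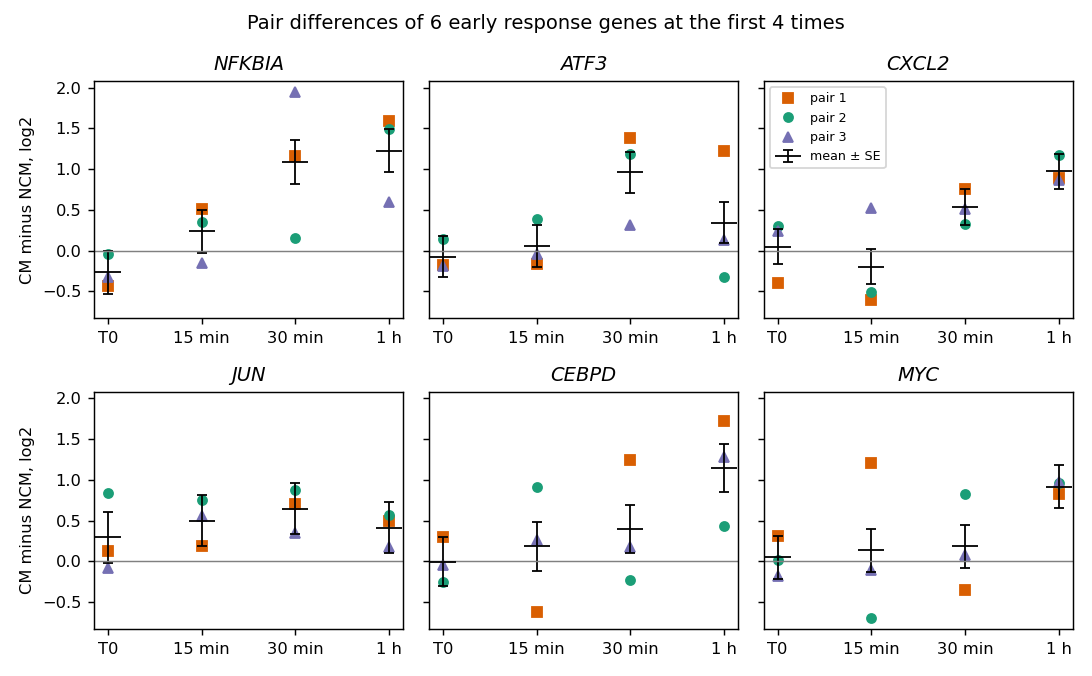
CM minus NCM (log2) of early response genes at T0, 15 min, 30 min and 1 h, with a point for each pair and, in black, the mean with its SE from limma. NFKBIA had 0.24 at 15 min against 1.09 at 30 min, ATF3 0.06 against 0.96, and CXCL2 -0.20 against 0.53. For NFKBIA the CM mean was -1.05 and -1.04 at these times, and the NCM mean -1.29 and -2.13.

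The lists of signalling genes had medians between -0.14 and 0.12, where the median of all 5631 genes was -0.01. The NF-kappaB list held subunits, feedback inhibitors and targets. Of its 16 measured genes, 14 (87.5%) had a change above 0, against 48.4% of all genes, with a median of 0.09. The same 48.4% applies to each later count of changes above 0 over the 3 pairs. The pair medians were 0.50, 0.04 and -0.08, and over pairs 2 and 3 alone 9 of the 16 were above 0, against 47.2% of all genes. CM was higher in 3 of 3 pairs for 2 of the 16 (12.5%, against 10.8% of all genes), TNIP1, which restrains NF-kappaB (0.34), and CD83 (0.09). The cytokine IL6 had the highest change of the list, 0.47 (0.81 without pair 1). The chemokine CCL20 had the lowest, -0.22, from pair differences of 1.00, -1.06 and -0.62.

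Receptor signalling genes of interleukin-1, TNF and interferon had 9 of 15 above 0 and a median of 0.12. TOLLIP, an adaptor of interleukin-1 receptor signalling, had -1.42, -1.41 and -1.76 in CM and -1.78, -1.81 and -2.16 in NCM. All CM values lay above all NCM values, and the pair differences of 0.36, 0.41 and 0.40 were close together, with a change of 0.39 (SE 0.25). MYD88, the adaptor that starts interleukin-1 signalling, had pair differences of -0.10, 1.10 and 1.05 and a change of 0.68. With the floor at the 10th percentile the change of MYD88 was 0.21.

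In the list of immediate early transcription factors, 10 of 18 genes were above 0 (median 0.04). In 3 of 3 pairs 3 were higher and 3 lower (16.7% each, against 10.8% and 10.2% of all genes). The orphan receptor NR4A1 was among the lower ones, with pair differences of -1.15, -0.01 and -0.21 and a change of -0.46, which was -0.11 without pair 1. Of the other immediate early genes 6 of 14 were above 0 (median -0.06). Among these MCL1, a short-lived protein that protects from apoptosis, had -0.58, -0.60 and -0.61 in CM and -1.27, -1.04 and -1.11 in NCM. The CM values were nearly identical and all lay above NCM, with a change of 0.54 (SE 0.24, unadjusted p = 0.0317 in limma). STAT3 pathway genes had 8 of 19 above 0 (median -0.04). The kinase JAK2 had pair differences of -1.09, 1.74 and 0.97 and a change of 0.54, which was 1.36 without pair 1 and -0.06 without pair 2. The shared receptor subunit IL6ST had -0.22, and 0.41 on a second probe. MAP kinase cascades had 3 of 9 above 0 (median -0.14).

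Acute phase genes known to rise had 9 of 25 above 0 (median -0.13), and those known to fall had 12 of 22 (median 0.01). In the second group TTR, the thyroxine carrier transthyretin, had 0.23, -1.04 and -0.79 in CM and 1.19, -0.63 and -0.46 in NCM, with a change of -0.57 on its brightest probe. The 5 other TTR probes had 0.34, 0.27, 0.50, 0.25 and -0.20, and the mean over all its probes was 0.10, on the other side of 0. APOA1, the main protein of high-density lipoprotein, had 0.29, -0.07 and 0.35 in CM and 1.64, 0.16 and 0.59 in NCM, with a change of -0.61 (-0.23 without pair 1), and its other probes had -0.19 and -0.62. On their brightest probes both were lower in CM in each pair, by more than 2 times as much in pair 1 as in pairs 2 and 3. Liver transcription factors had 3 of 8 above 0 (median -0.10).

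Cytosolic ribosomal protein genes were below 0 for 41 of 54, with a median change of -0.17. The share above 0 was 24.1%, against 48.4% of all genes. The median was 0.09, -0.06 and -0.36 in pairs 1, 2 and 3, so it was not below 0 in pair 1. Over pairs 2 and 3 alone 7 of the 54 were above 0, against 47.2% of all genes, and the list's median was -0.23. CM was lower in 3 of 3 pairs for 12 of the 54 (22.2%) and higher for 3 (5.56%), against 10.2% and 10.8% of all genes. RPS9 had -0.59, -0.55 and -0.42 in CM and 0.92, -0.24 and 0.01 in NCM, with no overlap, and RPL10 had -0.54, -0.26 and -0.01 in CM and 1.12, 0.02 and 0.11 in NCM. In both genes the NCM value of pair 1 was the highest, and the changes were -0.75 and -0.69, which were -0.37 and -0.20 without pair 1. RPL22 went the other way, at 0.85 (1.36 without pair 1). The list's median was -0.12 at T0 and -0.20 at 30 min, so it was below 0 at all 3 of these times.

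The other groups had medians between -0.13 and 0.22. Heat shock proteins and chaperones had 11 of 31 above 0 (median -0.13), with PDIA3, a disulfide isomerase, at -0.72 (-0.34 without pair 1) and pair medians of 0.35, -0.27 and -0.23. HSP90B1 of this list had 0.32 on its brightest probe, which was -0.23 without pair 1. A dimmer HSP90B1 probe had -1.02, with CM lower in 3 of 3 pairs (SE 0.22, unadjusted p = 0.000158, adjusted p = 0.9998 in limma). The ranking of genes by p left that probe out. Translation factors had 7 of 25 above 0 (median -0.08), and respiratory chain subunits 23 of 61 (median -0.06). RNA polymerase II and elongation factors had 13 of 24 (median 0.02), mRNA decay genes 10 of 25 (median -0.04), metallothioneins 2 of 5 (median -0.03) and cell cycle genes 15 of 22 (median 0.09). Apoptosis genes and death receptors had 9 of 12 above 0 and a median of 0.22, with DAPK1 (0.89), MCL1 (0.54) and BCL2L11 (0.49) higher in each pair. These were 25% of the list, against 10.8% of all genes. The differences of BCL2L11 were 0.31, 1.16 and 0.02, so that pair 2 supplied most of its change. The death receptor TNFRSF10B was lower in each pair, at -0.58 (-0.33 without pair 1). The pair medians of that list were 0.46, 0.31 and -0.00, and 6 of the 12 were above 0 over pairs 2 and 3, against 47.2% of all genes.

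**Figure D5:**
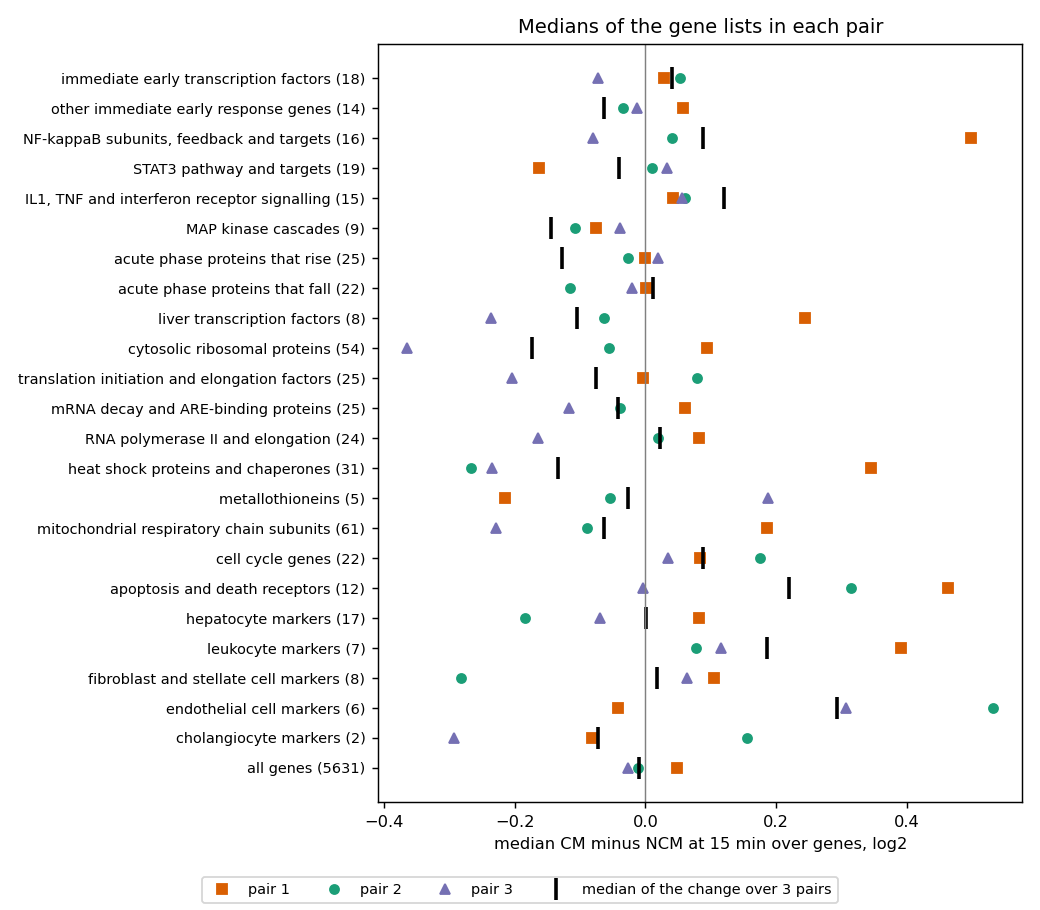
Median CM minus NCM at 15 min (log2) over the measured genes of each list, whose number stands in brackets, with a point for each pair and a bar for the median of the change over pairs. The NF-kappaB list had 0.50, 0.04 and -0.08 in pairs 1, 2 and 3, and the ribosomal proteins 0.09, -0.06 and -0.36.

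The label of a hepatoma line was checked with hepatocyte markers. Of 18 markers 17 were measured, and their median log2 intensity was 0.57, 0.38 and 0.42 on the CM arrays and 0.53, 0.23 and 0.48 on the NCM arrays. The medians of all 5631 genes were -0.94, -1.06 and -0.97 on the CM arrays and -0.99, -0.96 and -0.95 on the NCM arrays. The median change of the hepatocyte markers was 0.00, and 9 of the 17 were above 0. At an unadjusted p under 0.05 in limma, 3 were lower in CM (17.6%, against 1.23% of all genes) and 1 higher (5.88%, against 1.97%). CM was lower in 3 of 3 pairs for 3 and higher for 0, against 10.2% and 10.8% of all genes. Markers of other cell types had been listed too. Leukocyte markers had 5 of 7 above 0 (median 0.19), with CD79A at 1.10 and HLA-DRA at 0.60, which was 0.07 without pair 1. CD79A had 0.33 with the floor at the 10th percentile. The lowest were PTPRC at -0.21 and CD3D at -0.01. The median log2 intensity of the leukocyte markers was -0.25, -0.99 and -0.91 in CM and -0.90, -1.09 and -1.09 in NCM. Endothelial markers had 6 of 6 above 0 (median 0.29, pair medians -0.04, 0.53 and 0.31), with STAB2 at 0.66 (0.27 without pair 2). Fibroblast and stellate cell markers had 4 of 8 above 0 (median 0.02), and cholangiocyte markers 0 of 2 (median -0.07). The part of other cell types in any single value was not tested.

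The difference between CM and NCM at 15 min was also set against that between the paired cultures at T0 and against that at 30 min. Limma called 0 of 13824 probes for 15 min minus T0 (0%), with 502 at an unadjusted p under 0.05, and 0 for 15 min minus 30 min (0%), with 253. Of the 24 genes chosen by smallest p, 12 had the same sign at T0 as at 15 min and 17 had it at 30 min, where 49.4% and 57.4% of all genes did. The 17 were 9 of the 12 higher in CM and 8 of the 12 lower in CM. At 1 h it was 12 of the 24, against 54.4% of all genes.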

How the data were processed

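The deposited values are linear intensities, 1 per probe and array, on a scale set by the authors. The sources used here name no array type, scanner, background correction or scaling, and arrays have no count depth, so their number limits the precision. All 42 arrays were quantile normalized on the linear scale, values under the common 1st percentile (0.0813, -3.62 on the log2 scale) were raised to it, and the result was put on the log2 scale. Gene names came from the array annotation. Of 13824 probes 7336 named 1 gene, 7322 of these matched the RefSeq gene table (GRCh38.p14) by Entrez ID, and 5631 genes resulted, each represented by the probe with the highest mean over the 42 arrays.

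Limma 3.58.1 in R 4.3.3 fitted all 42 arrays with a block for each pair and a separate CM effect at each time (14 residual and 6.26 prior degrees of freedom). Tests were two-sided, with Benjamini-Hochberg adjustment over 13824 probes and a threshold of 0.05. The pairs come from the labels' description of paired cultures. Deviations of paired arrays from their group means correlated at 0.424, 0.308 and 0.498 at 15 min. Nothing further is given on the cultures, so p-values measure the spread between the pairs of all times. Whether an experiment number marks the same batch of cells at every time is not stated. The fit treated the pairs of the 7 times as independent.

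Named genes were up to 12 per direction past the threshold with 3 of 3 pairs alike, by smallest p, or, where too few passed, the 12 with the smallest unadjusted p. To these came 24 fixed genes and the 2 highest and 2 lowest members of each of 23 lists. Other list members, second probes and the genes drawn by array were chosen after their values were seen. Genes and lists were chosen with earlier results of these data known, and lists were not tested. Alternatives were no pair block, deposited values, median centring, omission of the dimmest 25% or 50% or of probes with copied values, a floor at the 10th percentile, an intensity trend with robust spread, neighbour centring, 15 min fitted alone, averaging a gene's probes, and leaving out each replicate. Neighbour centring assumed, from the numbering alone, that probes lie on 36 grids of 16 rows and 24 columns. The fit was run on simulated data with known changes and noise drawn independently for each probe and array. The real pair differences correlated between neighbouring probes, so that run does not show how the fit behaves on them. Plots used matplotlib 3.10.9.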

Additional observations from a re-analysis of the deposited data

Results flagged for a closer look

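Among the 121 named genes, many picked for their 15 min changes, 6 had all 3 pairs opposite at 15 min and at T0. All 3 pairs lay on 1 side of 0 at 15 min and on the other side at T0. For EGR3 this also held at 30 min. Over all 5631 genes this held for 120 (2.13%) between 15 min and T0 and for 67 (1.19%) between 15 min and 30 min. The differences were tested in limma, and each had an adjusted p of 1.00. LARP7 had a change of -0.95 at 15 min and 0.30 at T0, a difference of -1.25 (SE 0.38, unadjusted p = 0.00344). ABHD2 had -0.62 at 15 min and 0.44 at T0, a difference of -1.06 (SE 0.32). PDIA3 had -0.72 and 0.37, a difference of -1.10 (SE 0.38), and its change at 15 min was -0.34 without pair 1. For EEF2, the translation elongation factor 2, the changes were -0.43 and 0.51, a difference of -0.93 (SE 0.34). Its pair differences at 15 min ran from -1.11 in pair 3 to -0.16 in pair 2 and close to 0 in pair 1, and the change was -0.08 without pair 3. ITIH4, an acute phase inhibitor heavy chain, had -0.47 and 0.09, a difference of -0.56 (SE 0.29). Its 15 min change was close to 0 in pair 1 and was -0.26 without pair 2, and its other probes had 0.26 and -0.01. The transcription factor EGR3 had 0.27 at 15 min, -0.64 at T0 and -0.32 at 30 min, so that 15 min differed by 0.91 from T0 and by 0.59 from 30 min (SE 0.46 each).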

How the results depend on the processing

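The count of called probes at 15 min was 0 under every alternative run, and so was that of 15 min minus 30 min. Leaving out each replicate in turn gave 0 to 4 called probes for 15 min minus T0, and 0 under its other alternatives. The 4 appeared without replicate 3. All were lower (differences -2.98 to -2.13, adjusted p 0.0212 to 0.0249), none names a single gene, and with 3 pairs their adjusted p was 0.999. Without the replicate block the counts stayed at 0 in the 3 comparisons, with 92 probes at an unadjusted p under 0.05 at 15 min against 492 with it. That number was 714 with neighbour centring, 430 on deposited values, 364 with median centring, 298 with 15 min fitted alone and 687, 868 and 678 without replicate 1, 2 and 3. The 24 genes by smallest p were chosen for 3 pairs alike, which fixes their sign when a pair is left out. Of the 97 other named genes 46 changed sign in at least 1 alternative. With the floor at the 10th percentile, 7 of the 24 moved by over 1.5 times: DAPK1 had 0.22, ANK2 0.19, CD79A 0.33, LARP7 -0.28, PIK3R4 -0.34, FKBP10 -0.38 and NFS1 -0.52. With neighbour centring 6 did: TMEM126B had -0.40, RMP24 0.38, PPT2 0.57, TNS3 0.40, NFS1 -0.72 and GSTZ1 -1.18. With median centring, and likewise on deposited values, 6 did. With median centring DAPK1 had 0.45, ANK2 0.49, RMP24 0.43, GSTZ1 -0.44, LARP7 -1.48 and PIK3R4 -1.42. With all probes of a gene averaged, TNS3 had 0.34, SQSTM1 -0.26 and ABHD2 -0.12. The lowest adjusted p of a named gene under any alternative was 0.687. Of the 23 list medians 8 kept their sign throughout. With 3 pairs and a median SE of 0.27 over probes, changes of the size given here could not be told from 0, which does not show that CM and NCM were alike at 15 min.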

Other observations

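Across all probes the change at 15 min correlated at 0.05 with that at T0, 0.25 with 30 min, 0.21 with 1 h, -0.15 with 3 h, -0.03 with 6 h and -0.07 with 16 h. After neighbour centring the values were 0.07 for T0, 0.21 for 30 min and 0.22 for 1 h. The times share no arrays, and probes are not independent replicates. Among cell cycle genes at 15 min, BUB3, a checkpoint protein of mitosis, had pair differences of 0.58, 0.73 and 0.52 and a change of 0.61. CDKN3, a phosphatase of cyclin-dependent kinases, had -0.72, which was -0.28 without pair 1. Among mRNA decay genes with 3 of 3 pairs alike, TIAL1 had 0.41 (0.12 without pair 1), PAN3 had 0.47 (0.25 without pair 2, and 0.08 with the floor at the 10th percentile), and the decapping factor DCP1A had -0.44 (-0.24 without pair 3). The 4 probes called for 15 min minus T0 without replicate 3 have the numbers 12432, 12504, 12528 and 12552, which all fall in the last of 24 columns of the grid assumed from the numbering.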
